A study of Bos taurus with 111 samples.

Results

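PDK4 (ENSBTAG00000014069) encodes pyruvate dehydrogenase kinase 4 and was 1 of 24616 genes counted by RNA sequencing in muscle biopsies of steers. It was followed here in 104 libraries from 77 of 83 steers, the whole series less 7 libraries. Those were 6 with under 1000000 reads counted on genes and, by the rule that set the libraries, the ZG library of CH steer 571. That rule uses no PDK4 level.

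Pyruvate dehydrogenase turns pyruvate into acetyl-CoA, and so commits carbon from glucose to oxidation in mitochondria. PDK4 phosphorylates that enzyme complex and switches it off, which spares glucose and leaves muscle to burn fatty acids. Transcription of the gene is known to rise in skeletal muscle in fasting and with fat-rich fuel supply, through PPAR and FOXO transcription factors, nuclear receptors of the NR4A family and glucocorticoids, and to fall with insulin.

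The steers were Charolais (CH) or Holstein Friesian (HF), and biopsies of the longissimus muscle of the back were taken at the end of feeding periods of 70 d. Both H1 (the growing stage) and H2 (the finishing stage) were high concentrate diets based on rolled barley, given with a small allowance of grass silage. ZG was zero-grazed grass, cut and carried to the steers between H1 and H2. Residual feed intake (RFI), the feed an animal eats beyond what its size and growth predict, was ranked within breed and diet, and the steers at the low (L-RFI, feed efficient) and high (H-RFI) extremes were sampled. Mean body weight at the start of H1, ZG and H2 was 395, 519 and 675 kg in CH and 294, 441 and 611 kg in HF. Age at the start of H1 averaged 283 d in CH and 306 d in HF. Diet, age, body weight and sampling time changed together from phase to phase and cannot be told apart. RFI class was set anew in each phase, so 8 steers held libraries in both classes.

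The libraries used held 2201765 to 52552057 gene counts with a median of 15852100. PDK4 had 16 to 30483 reads in them and a median of 950.5. Levels are given as counts per 1000000 gene counts (CPM). The lowest was 1.97 CPM in HF steer 2220 in H2, with a 95% Wilson interval of 1.47 to 2.65 that covers counting error only. The highest was 1307 CPM in CH steer 1879 in ZG (interval 1292 to 1321), 662 times as much. The 6 markers listed for skeletal muscle (ACTA1, CKM, DES, TTN, NEB and MB) could not be matched to names and were not analysed here, so the labelled tissue was not checked with them. In whole tissue, fewer cells of a type and less RNA per cell cannot be told apart.

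PDK4 was highest on grass and lowest in the finishing phase. Across the 38 H1 libraries it ranged from 9.79 to 550 CPM with a median of 59.3 CPM. The 36 ZG libraries ran from 10.00 to 1307 CPM, with a median of 149 CPM. The 30 H2 libraries ran from 1.97 to 525 CPM, with a median of 11.5 CPM. The ranges overlapped widely, but the low end belonged to H2. Levels under 10 CPM were seen in 14 of 30 libraries in H2, and in 1 each in H1 and ZG. At the other end, levels over 100 CPM were seen in 16 of 38 H1 libraries, 23 of 36 ZG libraries and 4 of 30 H2 libraries.

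The order of the phases was the same in both breeds. Median levels in HF were 179 CPM in ZG, 65.6 CPM in H1 and 15.6 CPM in H2. In CH they were 116 CPM, 57.3 CPM and 9.18 CPM. Every ZG library of each breed lay above the H2 median of that breed. In HF, 9 of 16 H2 libraries lay below the lowest ZG library, and in CH 7 of 14 did. Ordered by mean log2(CPM + 1), the 6 combinations ran HF-ZG, CH-ZG, HF-H1, CH-H1, HF-H2 and CH-H2, and no neighbours in that order were further apart than their SDs. The widest step between neighbours, 1.70 on the log2 scale between CH-H1 and HF-H2, compared with SDs of 1.55 and 2.03.

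**Figure D1:**
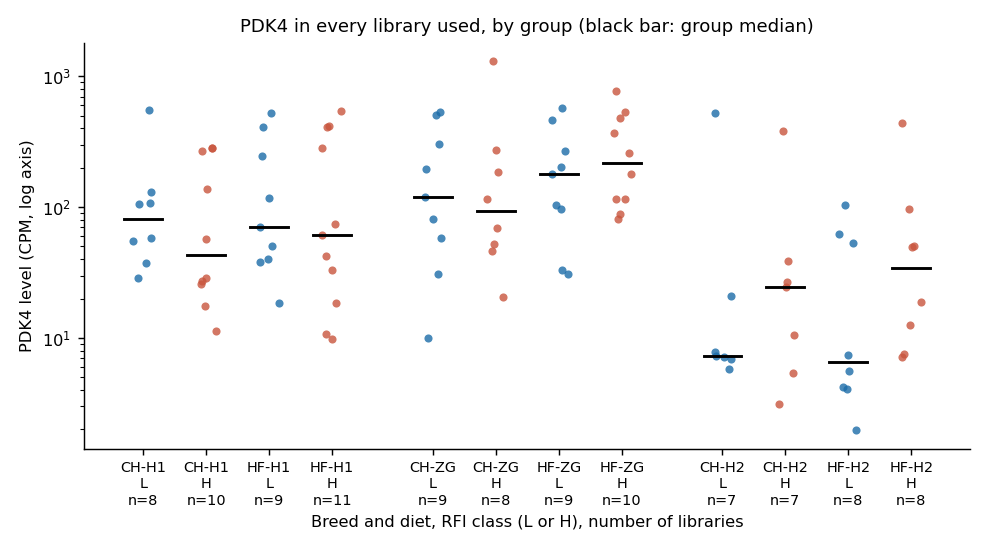
PDK4 level (CPM, log axis) in each of the 104 libraries, by diet, breed and RFI class (blue, L-RFI; red, H-RFI), with the median of each of the 12 groups as a black bar. The groups overlap, the H2 groups hold 14 of the 16 libraries under 10 CPM, and the highest library is a CH-ZG H-RFI steer at 1307 CPM.

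Phases were compared by limma voom over all 104 libraries, with the steer as a block and the contrast averaged over both RFI classes, and a gene passed at a Benjamini-Hochberg adjusted p-value under 0.1 over the 10291 genes tested and a fold change over 1.5. PDK4 fell from ZG to H2 in both breeds. In HF the log2 difference was -2.92 (SE 0.55, adjusted p = 0.000439), a level 7.58-fold lower with a 95% interval of 3.54 to 16.2. In CH it was -2.80 (SE 0.59, adjusted p = 0.00368), or 6.98-fold lower (3.10 to 15.7). Of the 10291 genes, 5.5% passed as lower in H2 than in ZG in HF and 0.865% in CH, and by p-value PDK4 stood at place 19 in each breed. The CH result was lost when the same libraries were compared without the block by edgeR's quasi-likelihood test (-1.67, adjusted p = 0.274) or by DESeq2 (-1.61, adjusted p = 0.178). The HF result passed in all 9 alternatives, from -3.20 to -2.27.

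PDK4 was also lower in H2 than in H1, although the diets were of the same kind. The log2 difference was -1.71 in HF (SE 0.54, adjusted p = 0.0178), 3.28-fold lower with an interval of 1.56 to 6.90. In CH it was -1.75 (SE 0.58, adjusted p = 0.0900), 3.36-fold lower with an interval of 1.52 to 7.47. Of all genes tested, 13.1% passed as lower in H2 than in H1 in HF and 2.1% in CH. By p-value PDK4 stood at place 1177 in HF and 369 in CH. The CH value lay at the edge of the threshold, no longer passed when any of 17 CH steers was left out (adjusted p from 0.105 to 0.153), and was -0.60 (adjusted p = 0.762) with edgeR and -0.58 (adjusted p = 0.735) with DESeq2. These comparisons share their H2 libraries with those against ZG. Libraries were also scaled by their totals alone, a setting added after seeing the data. The median of all genes then ran from -0.47 to 0.09 in the 6 phase comparisons, against -0.07 to -0.02 in the model above. With library totals PDK4 passed in the same 4, from -3.20 to -2.05.

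From H1 to ZG, PDK4 did not pass in either breed. The log2 difference was 1.21 in HF (SE 0.51, p = 0.0205, adjusted p = 0.398) with a 95% interval of 0.19 to 2.23. In CH it was 1.05 (SE 0.54, p = 0.0539, adjusted p = 0.238) with an interval of -0.02 to 2.13. As folds these were 2.31 and 2.08, with intervals that reached 4.68 and 4.36. With sample quality weights the CH value was 1.27 and passed (adjusted p = 0.0348).

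**Figure D2:**
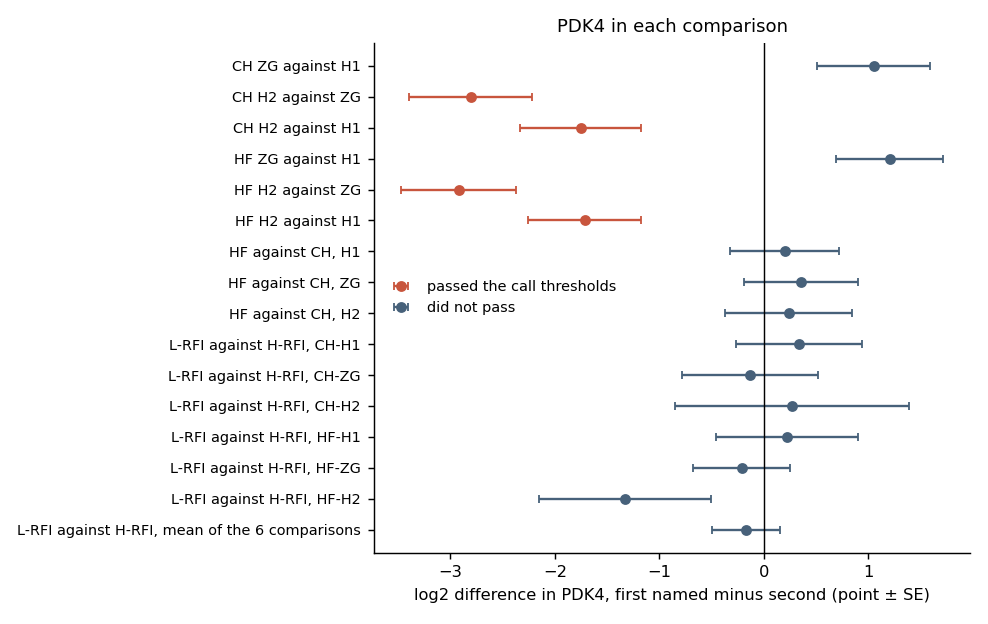
log2 difference in PDK4 (point ± SE) in each comparison, first named minus second, with phase and breed comparisons and the mean over RFI comparisons from limma voom with the steer as a block and the 6 single RFI comparisons from edgeR's quasi-likelihood test. The 4 points in red, H2 against ZG and H2 against H1 in each breed, passed the thresholds and lie between -2.92 and -1.71.

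Repeated biopsies of a steer set the phases against each other within animals. In all, 25 steers had libraries in more than 1 phase, 23 of them in 2 phases and 2 in 3. From H1 to ZG, PDK4 was higher in 8 of 11 steers, with a mean difference in log2(CPM + 1) of 1.19 (SD 1.46, n = 11), a 2.28-fold rise. The two-sided exact sign-flip permutation test gave p = 0.0264, and 0.0396 when adjusted over the 3 pairs of phases. An adjusted p under 0.05 was taken as passing in this test. The steps were large in CH steer 1816 (28.8 to 275 CPM), CH steer 1100 (37.6 to 302 CPM) and CH steer 307 (27.3 to 186 CPM). Some steers that were already high in H1 moved little, such as HF steer 2069 (411 to 483 CPM) and HF steer 5635 (417 to 462 CPM). The 3 steers that were lower in ZG were CH steers 1831 and 449 and HF steer 5632. The adjusted p was 0.0527 when any of steers 1100, 1816, 307, 2064, 2065 or 5613 was left out.

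From ZG to H2, PDK4 was lower in 6 of 7 steers, by a mean of -2.89 (SD 2.87, n = 7), or 7.43-fold (exact sign-flip p = 0.0469, adjusted p = 0.0469). All 5 CH steers were lower in H2, from 534.5 to 7.16 CPM in steer 310, 302 to 10.5 CPM in steer 1100, 186 to 6.91 CPM in steer 307, 69.4 to 3.13 CPM in steer 1484 and 10.00 to 5.82 CPM in steer 1492. With 5 steers the smallest p that the exact test allows is 0.0625, which is the value they gave. Of the 2 HF steers, 5612 went from 575 to 104 CPM and 1639 went the other way, from 88.3 to 439 CPM. Leaving out any of the 6 steers that were lower took the adjusted p to 0.0625 or 0.0938.

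From H1 to H2, PDK4 was lower in 10 of 11 steers, by a mean of -2.64 (SD 2.71, n = 11), or 6.25-fold (exact sign-flip permutation p = 0.0127, adjusted p = 0.0381). The mean was -1.29 in the 6 CH steers (2.44-fold lower, exact p = 0.344) and -4.27 in the 5 HF steers (19.3-fold lower, exact p = 0.0625, the smallest that 5 steers allow), and the difference between breeds was not tested. All 5 HF steers were lower in H2. Steer 1811 went from 544 to 7.19 CPM, steer 2095 from 521 to 62.4 CPM, steer 2071 from 281 to 18.7 CPM, steer 1920 from 74.0 to 4.23 CPM and steer 2220 from 70.5 to 1.97 CPM. The exception was CH steer 443, which went from 25.7 to 379 CPM. Without it the mean was -3.29, the lowest of a range that reached -2.30 as each steer was left out. The adjusted p stayed between 0.00586 and 0.0396 whichever steer was left out. The 2 steers with all 3 phases, 1100 and 307, both had their highest level in ZG and their lowest in H2.

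**Figure D3:**
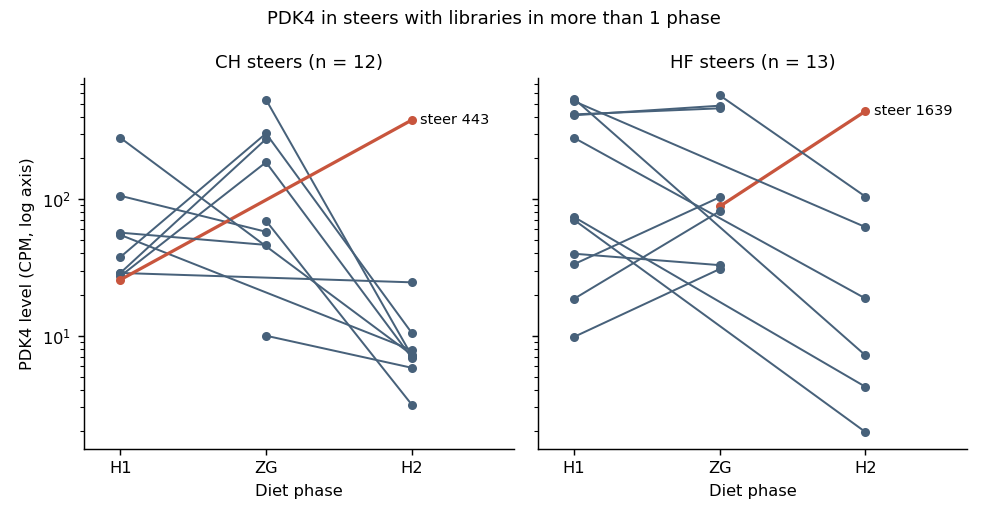
PDK4 level (CPM, log axis) in the 25 steers with libraries in more than 1 phase, CH on the left and HF on the right, each line joining the libraries of 1 steer. Lines that reach H2 fall, except in CH steer 443 and HF steer 1639 (red), which reach 379 and 439 CPM.

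HF and CH steers did not differ detectably in PDK4 within a phase. The log2 difference (HF minus CH) was 0.20 in H1 (95% interval -0.84 to 1.24), 0.36 in ZG (-0.72 to 1.44) and 0.24 in H2 (-0.97 to 1.45), with adjusted p of at least 0.770 in limma voom. Of all genes tested, 0.262% passed between breeds in H1, 1.41% in ZG and 0.204% in H2. The H2 interval allows a level up to 2.73-fold higher or 1.96-fold lower in HF. The test of whether the phase changes differed between breeds gave F = 0.0233 (p = 0.977, adjusted p = 0.997). Phase took up 29.5% of the sum of squares of log2(CPM + 1), breed 0.732% and RFI class 0.389%, and 67.0% lay within the 12 groups of breed, phase and RFI class.

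The RFI classes were the contrast for which the steers had been selected, and PDK4 did not pass in any of the 6 comparisons by edgeR's quasi-likelihood test, in which the percentage of all genes passing was 0 each time (72 to 1228 genes were at an unadjusted p under 0.05). With edgeR's exact test, DESeq2 or limma voom with quality weights, 0 to 2 genes passed in each, except 1742 in HF-ZG with the weights. The widest gap was in HF-H2. There the 8 L-RFI steers ran from 1.97 to 104 CPM with a median of 6.51 CPM, and the 8 H-RFI steers from 7.19 to 439 CPM with a median of 34.2 CPM. The groups overlapped, with 5 L-RFI and 2 H-RFI libraries under 10 CPM. The log2 difference (L minus H) was -1.33 (SE 0.83, p = 0.125, adjusted p = 1.00), and an exact permutation test of log2(CPM + 1) gave -1.29 (p = 0.212, adjusted over the 6 comparisons 0.818). As each steer was left out, the difference from edgeR ran from -1.94 without L-RFI steer 5612 to -0.22 without H-RFI steer 1639. That of the permutation test ran from -1.70 to -0.77, without the same steers. Unadjusted p-values were 0.0889 with edgeR's exact test, 0.0746 with DESeq2 and 0.0410 with limma voom and quality weights (adjusted p = 0.652).

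In the other 5 comparisons the log2 differences by edgeR were 0.34 in CH-H1 (SE 0.60), -0.13 in CH-ZG (SE 0.65), 0.27 in CH-H2 (SE 1.13), 0.23 in HF-H1 (SE 0.68) and -0.21 in HF-ZG (SE 0.47). The L-RFI median was above that of H-RFI in CH-H1 (81.8 against 42.8 CPM), CH-ZG (119 against 92.9 CPM) and HF-H1 (70.5 against 60.7 CPM). It was below in CH-H2 (7.27 against 24.6 CPM) and HF-ZG (179 against 219 CPM). Every pair of groups overlapped. Exact permutation p-values lay between 0.308 and 0.992 in these 5 comparisons. Single libraries set the sign in 4 of them. The CH-H1 difference was -0.36 without steer 1797, the CH-ZG difference was 0.75 without steer 1879, 0.03 without steer 1492 and 0.01 without steer 545, the HF-H1 difference was -0.073 without steer 2095, and the CH-H2 difference ran from -2.64 without steer 1316 to 2.09 without steer 443.

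Over the 6 comparisons together, the mean difference between L-RFI and H-RFI was -0.16 (SE 0.33, limma voom adjusted p = 0.805), with a 95% interval of -0.81 to 0.48 that allows L-RFI steers to be up to 1.76-fold lower or 1.40-fold higher. The test for unequal differences among the 6 gave F = 0.883 (p = 0.495, adjusted p = 1.00).

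PDK4 varied more among steers of 1 group than nearly all other genes. Its SD within the 12 groups was 1.68 on the log2 scale, against a median of 0.62 over the genes tested. Of those, 33 (0.321%) had a larger SD, and none of the 500 genes nearest to PDK4 in mean level did. The deviation of a steer from its group did not carry over clearly to its next biopsy. Between the first and second libraries of the 25 steers, Pearson's r was 0.13 (permutation p = 0.532) and Spearman's rho 0.11 (permutation p = 0.588), and r was 0.17 without the 2 steers farthest from the median. Against sequencing depth, r was 0.17 over 104 libraries (permutation p = 0.0778, adjusted over both relations 0.156), rho was 0.19 (permutation p = 0.0552, adjusted 0.110), and r without the 2 libraries of most extreme depth was 0.18. The 104 libraries include repeats of 25 steers.

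Genes that act with PDK4 were read from lists of known regulators, responders and fuel enzymes. Names came only from the table in which the study named genes it had selected in these libraries, so 38 of 151 listed symbols could be matched, and they are not a free sample of their pathways. The other 3 pyruvate dehydrogenase kinases (PDK1, PDK2 and PDK3) and CPT1B, UCP3, PPARGC1A and ANGPTL4 were not analysed here. Values of genes other than PDK4 are CPM scaled by TMM.

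Of the known regulators of PDK4, 3 of 18 could be read, and both NR4A nuclear receptors among them fell from ZG to H2, as PDK4 did. NR4A3 had log2 differences of -3.56 in HF (SE 0.72, adjusted p = 0.000753) and -3.17 in CH (SE 0.75, adjusted p = 0.0139). Its level in H2 was low, at 0 to 0.96 CPM in HF (median 0.24) and 0 to 3.04 CPM in CH (median 0.39). The medians in ZG were 2.83 and 3.43 CPM, so the size of these falls rests on few reads. NR4A1 had -1.25 in HF (SE 0.26, adjusted p = 0.00113) and -1.71 in CH (SE 0.28, adjusted p = 3.85e-05). Of all genes tested, 5.5% passed as lower there in HF and 0.865% in CH. FOXO1, the forkhead factor that insulin restrains, did not pass, at -0.43 in HF and -0.21 in CH. From H1 to H2 in HF all 3 fell, FOXO1 by 1.23 on the log2 scale (SE 0.29, adjusted p = 0.00152), while in CH none passed (13.1% and 2.1% of all genes passed as lower). From H1 to ZG, NR4A1 rose in CH (1.09, SE 0.26, adjusted p = 0.0115) and was 0.55 in HF (adjusted p = 0.455). The list median from ZG to H2 was -1.71 in CH and -1.25 in HF, and that of all genes -0.02 and -0.04. With no library left out, 0 of the 3 passed in CH from ZG to H2 and 2 in HF, and NR4A1 passed neither from H1 to ZG in CH (0.63, adjusted p = 0.504) nor from H1 to H2 in HF (-0.68, adjusted p = 0.202).

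Of 22 genes listed as known to respond to fasting, FOXO or glucocorticoids, 8 could be matched. Of these 8, 5 fell from ZG to H2 in each breed and none rose, where 5.5% (HF) and 0.865% (CH) of all genes tested passed as lower. The 5 were the same in both breeds. DDIT4, an inhibitor of mTORC1 signalling, fell by 1.70 on the log2 scale in HF (SE 0.28, adjusted p = 0.000148) and by 1.80 in CH (SE 0.30, adjusted p = 6.34e-05). COQ10B, a coenzyme Q binding protein of mitochondria, fell by 1.87 in each breed (SE 0.45 in HF and 0.50 in CH). KLF11, a zinc finger transcription factor, fell by 0.94 in HF and 1.32 in CH. The remaining members that fell were CEBPD, a transcription factor that glucocorticoids induce (-1.03 in HF and -0.94 in CH), and PIM1, a serine/threonine kinase (-0.94 in HF and -1.02 in CH). GADD45A, ARRDC2 and CISH did not pass, with values from -1.39 (CISH in CH) to 0.16 (ARRDC2 in CH). The list median was -0.94 in HF and -1.17 in CH. Scaled by library totals alone, 6 of 8 fell in HF and 2 in CH (DDIT4 and KLF11), while edgeR without the block gave 5 in each.

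From H1 to ZG, 4 of the 8 rose in HF (0.369% of all genes passed as higher) and 1 in CH (1.02%). KLF11 rose in both, by 1.08 in HF (SE 0.22, adjusted p = 0.00281) and 1.22 in CH (SE 0.23, adjusted p = 0.000779). Its level ran from 9.11 to 38.1 CPM with a median of 21.7 CPM in HF-ZG, and from 4.58 to 21.3 CPM with a median of 10.4 CPM in HF-H1. The others in HF were DDIT4 (1.15), ARRDC2 (1.22) and CEBPD (0.92). With library totals or with no library left out, 1 and 2 of the 8 rose in HF, KLF11 being among those lost with library totals (0.93, adjusted p = 0.108). Between H1 and H2, 1 member passed in each breed. DDIT4 fell by 1.18 in CH, where 2.1% of all genes passed as lower, and ARRDC2 rose by 1.12 in HF, where 2.33% passed as higher. PDK4 fell there in both breeds, while KLF11 was at -0.10 in CH and 0.14 in HF. With library totals DDIT4, COQ10B, GADD45A and PIM1 also passed as lower there in HF, where 3959 of the 10291 genes passed in either direction and the median of all genes was -0.47. The fall of DDIT4 in CH did not pass with edgeR (-0.92, adjusted p = 0.112) or with no library left out (-1.09, adjusted p = 0.161).

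**Figure D4:**
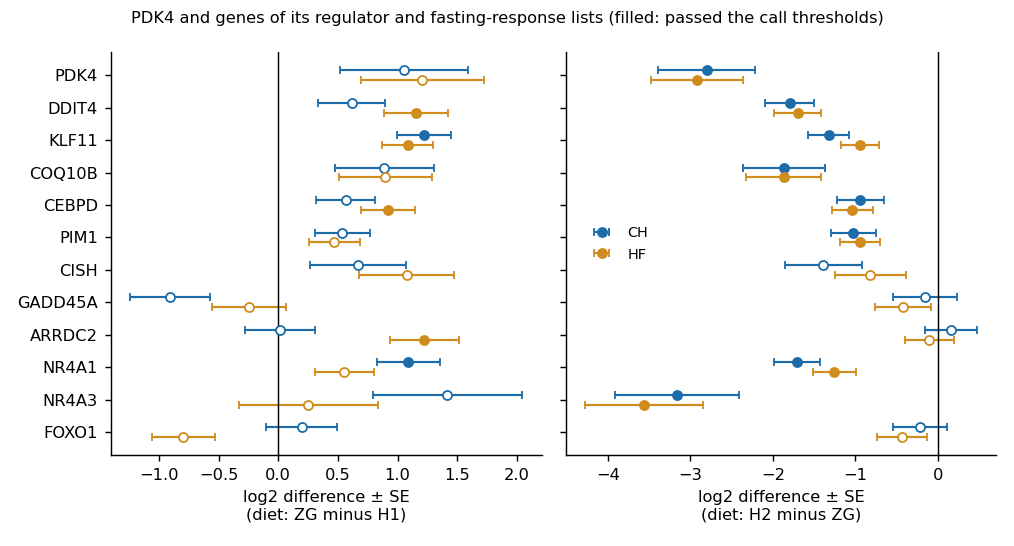
log2 difference (point ± SE; blue, CH; orange, HF; filled where the thresholds were passed) of PDK4, 8 genes of the fasting, FOXO and glucocorticoid list and 3 regulators, from H1 to ZG on the left and from ZG to H2 on the right. On the right PDK4, DDIT4, KLF11, COQ10B, CEBPD, PIM1, NR4A1 and NR4A3 are filled and below 0 in both breeds.

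Among genes of fatty acid use, where 4 of 29 could be matched, PLIN5, which coats lipid droplets and ties them to mitochondria, moved with the grass phase. It rose from H1 to ZG by 0.91 in HF (SE 0.20, adjusted p = 0.00951) and 0.83 in CH (SE 0.21, adjusted p = 0.0131), and fell from ZG to H2 in HF by 0.81 (adjusted p = 0.00973). In CH it did not pass from ZG to H2, with medians of 17.1 and 9.92 CPM, against 17.4 and 9.59 CPM in HF. Within groups its r with PDK4 was -0.20, and 0.09 when CPM was scaled by library totals alone, so its sign depended on the scaling. With library totals the rise in CH was 0.49 and did not pass, and with no library left out neither rise passed (0.90 in HF, adjusted p = 0.106, and 0.61 in CH, adjusted p = 0.249). Its level in HF-ZG ran from 7.13 to 34.6 CPM with a median of 17.4 CPM, against 2.78 to 21.0 CPM with a median of 9.49 CPM in HF-H1. BDH1, which interconverts ketone bodies, fell from ZG to H2 in HF by 1.01 (adjusted p = 0.0381), and did not pass with no library left out (adjusted p = 0.106). The other 2 matched, SLC27A6 and ACSM1, did not pass in any phase comparison, except that SLC27A6 was lower in ZG than in H1 in CH with library totals (-1.23, adjusted p = 0.0773). Of the list of fatty acid synthesis (3 of 9 matched), THRSP, a regulator of lipogenesis, rose in HF from ZG to H2 by 1.83 (adjusted p = 0.0220) and from H1 to H2 by 2.11 (adjusted p = 0.00326), while FASN and ELOVL6 did not pass. By edgeR without the block, the rise of THRSP from ZG to H2 was 1.09 and did not pass (adjusted p = 0.257). PCK2, the single gene matched of 14 for glucose and glycogen handling, was 1.00 higher in H2 than in H1 in HF (adjusted p = 0.0452). It did not pass with library totals (0.63), edgeR (0.80) or no library left out (1.05), with adjusted p from 0.109 to 0.145.

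Into H2, markers of fat cells moved in the opposite direction to PDK4 in HF. FABP4, CIDEC and TRARG1, the 3 matched of 6 adipocyte markers, rose from ZG to H2 by 1.24, 1.34 and 1.38 (0.807% of all genes passed as higher) and from H1 to H2 by 2.12, 2.46 and 2.34 (2.33% passed as higher). None passed in CH, where the list median was 1.00 from ZG to H2 and 1.21 from H1 to H2. From H1 to ZG none passed in either breed, with list medians of 0.96 in HF and 0.21 in CH. PDK4 did not pass there either, at 1.21 in HF and 1.05 in CH. By edgeR without the block, 0 of the 3 passed in HF from ZG to H2 and 3 from H1 to H2. FABP4 also failed to pass from ZG to H2 with library totals (0.93) or with no library left out (1.28). Their summed level was 1.19 to 137 CPM in H1 (median 6.84), 0.20 to 97.9 CPM in ZG (median 8.12) and 1.19 to 142 CPM in H2 (median 23.3). Within groups it correlated with PDK4 at r = -0.28 over the 104 libraries, a description only. ADIPOQ, PLIN1 and LEP were not analysed here. The fibre markers were 1 gene each, and MYL6B of slow fibres fell from ZG to H2 in HF by 1.08 (adjusted p = 0.0930) but did not pass with no library left out (-0.95, adjusted p = 0.376). MYH4 of fast fibres did not pass, except from H1 to ZG in CH by edgeR without the block (-2.32, adjusted p = 0.00992). Its level was low, with medians from 2.43 CPM in HF-ZG to 3.91 CPM in CH-H1, where the highest library had 184 CPM. Leukocyte markers (4 of 6 tested) and liver and plasma protein markers (7 of 7 tested) did not pass in any phase comparison. With library totals, PTPRC (-1.48) and LCP1 (-0.98) were lower in H2 than in H1 in HF and LYZ (-1.41) was lower in ZG than in H1 in CH, all 3 leukocyte markers. The sums of the leukocyte and the liver and plasma protein markers ranged from 1.38 to 86.8 CPM and from 22.6 to 10785 CPM, with r to PDK4 of 0.28 and -0.04. The red cell marker HBD was below the expression filter. The part of other cell types in the PDK4 differences was not tested.

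To find the genes whose pattern was most like that of PDK4, each of the other 10290 genes was correlated with it over the 104 libraries after subtracting the 12 group means from log2 CPM, so that differences between phases, breeds and classes played no part. These values are descriptions, since libraries share depth and 25 steers recur. Among the 118 genes with names, DDIT4 (r = 0.62) and KLF11 (r = 0.61) came first, at places 4 and 6 among all genes. The 3 genes ahead of DDIT4 had no name, with r up to 0.66. Others among the 10 named genes with the highest r were Pln, which encodes phospholamban, a regulator of the calcium pump of the sarcoplasmic reticulum (0.54), ADAM9, a membrane protease (0.53), COQ10B (0.51), GADD45A, a stress-response protein (0.51), NR4A2 (0.50), BDP1, a subunit of the RNA polymerase III initiation factor (0.50), and NR4A3 (0.47). Named genes were few, and among all genes these stood lower, from place 34 for Pln to 254 for NR4A2 and 808 for NR4A3. NR4A1 followed PDK4 little within groups (r = 0.13), at place 48 of the named genes and 4683 among all. Of the 10, 9 were also among the top 10 by Spearman's rho and 8 when CPM was scaled by library totals alone. The summed level of the fasting list had r = 0.65 with PDK4, and that of fatty acid synthesis (FASN, ELOVL6 and THRSP) -0.44. Such sums weigh the most abundant member most, here DDIT4 and FASN. Of the fasting members not named above, ARRDC2 had r = 0.31, CEBPD 0.30, PIM1 0.19 and CISH 0.06. FASN alone had -0.43, THRSP -0.24 and ELOVL6 0.06. The sums of the PDK4 regulators and of fatty acid uptake and oxidation had r = 0.12 and 0.01.

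The named genes with the lowest r were CD248 (r = -0.51), EEFSEC (-0.48), MAGIX (-0.47), ZNF628 (-0.44) and RPL38 (-0.43), which stood at places 132, 434, 693, 1262 and 1315 from the lowest of all genes (lowest r -0.58). CD248 marks stromal cells and pericytes, EEFSEC is the elongation factor for selenocysteine and RPL38 is a ribosomal protein. None of these 5 passed between phases. Nor did Pln and GADD45A, although they followed PDK4 within groups. NR4A2, the third member of the NR4A family, did both, with log2 differences from ZG to H2 of -4.31 in HF (SE 0.76, adjusted p = 0.000239) and -4.37 in CH (SE 0.82, adjusted p = 0.000654). Its median in H2 was 0.57 CPM in HF and 0.67 CPM in CH, so the size of these falls rests on few reads.

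**Figure D5:**
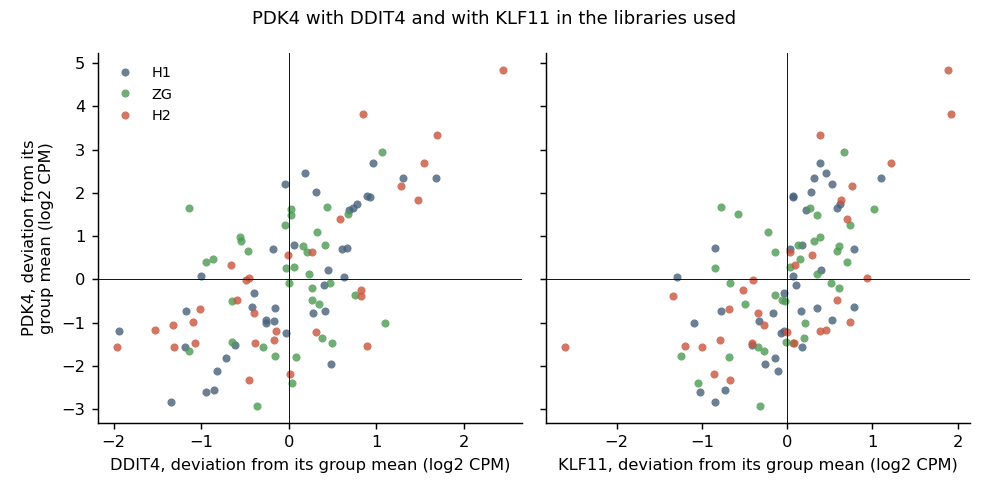
Deviation of PDK4 from its group mean (log2 CPM) against that of DDIT4 (left) and KLF11 (right) in the 104 libraries, coloured by diet phase. The points rise together in each panel, with r = 0.62 and r = 0.61.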

How the data were processed

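RNA sequencing libraries of muscle biopsies were prepared by the authors with a stranded mRNA kit. Reads were trimmed with cutadapt, aligned with STAR 2.5.1 and counted per gene in STAR's GeneCounts mode with an Ensembl annotation. The study's methods name ARS-UCD1.2 and the submitters' processing notes UMD3.1, so no coordinates are given. The authors deposited raw read counts, neither normalized nor filtered, and their reverse-strand counts were used (97.6% or more of stranded counts in the libraries used). The number of library pairs with identical counts was 0.

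PDK4 and the gene lists were chosen with earlier results of these data known. Group, breed, diet and steer came from the labels. The steer number pairs libraries of the same animal (consensus correlation 0.0966). PDK4 CPM is its count per 1000000 gene counts of the library, and log2(CPM + 1) was used for exact permutation and sign-flip tests (100000 resamples where enumeration was larger). In tests across genes, those reaching 1 CPM in 50% or more of the libraries compared were kept and TMM factors applied. RFI classes were compared within each breed and diet by edgeR's quasi-likelihood test, and phases, breeds and RFI over all libraries by limma voom with the steer as a replicate block. A gene passed at a Benjamini-Hochberg adjusted p-value under 0.1 with a fold change above 1.5, the study's thresholds. In the sign-flip and permutation tests the limit was an adjusted p-value under 0.05. SEs of edgeR values are the log2 difference over the square root of F.

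Named were PDK4, list members that passed (up to the 6 with the smallest p per list and comparison), preset members of interest, and the 10 named genes most like PDK4 and the 5 least like it. Of the 10, 1 is not reported here. Gene names came from 151 entries of the study's supplementary table that were found in the files.

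Alternatives were edgeR's exact test, DESeq2, sample quality weights, RLE size factors, no filter, unstranded counts, no library left out, no block, another pseudocount (0.1), TMM-scaled CPM and leaving out each steer. Library totals in place of TMM, and all alternatives for counts of list genes, were added after seeing the data. On data simulated from these counts, with 200 of the genes of a comparison changed, the quasi-likelihood test recovered 124 (HF-H2, 9936 genes) to 175 (CH-H1, 10596 genes), and limma voom 178 for HF H2 against ZG (10291 genes). Of the 200, 100 were changed 4-fold and 100 2-fold, and in HF-H2 88 and 36 of these were recovered. False calls made up 7.26% (HF-H1) to 10.8% (HF-ZG) of calls. Counts were drawn at the spread typical of genes of similar level, and PDK4 varied more than that. These recoveries therefore do not measure the power for PDK4. Tests across genes ran in R 4.3.3 with limma 3.58.1, DESeq2 1.42.0 and edgeR 4.0.16, and the rest in Python 3.11.15 with scipy 1.17.1, pandas 2.3.3, numpy 2.4.6 and matplotlib 3.10.9.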

Additional observations from a re-analysis of the deposited data

Results flagged for a closer look

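Within groups of 4 to 10 steers, 5 libraries stood apart from the rest of their group by Dixon's test at the 95% level, all of them as the highest value. The 11 groups of that size were tested as CPM and as log2(CPM + 1), which gave 6 flags in 22 tests, and chance flags about 1 in 20. CPM values are skewed, and on the log2 scale 1 flag remained.

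Both CH groups of the finishing phase had such a library. Steer 1316 (CH-H2, L-RFI) had 525 CPM, or 9.04 as log2(CPM + 1), while the other 6 ran from 5.82 to 20.8 CPM. Steer 443 (CH-H2, H-RFI) had 379 CPM, while the other 6 ran from 3.13 to 38.9 CPM. HF steer 1639 (HF-H2, H-RFI) had 439 CPM, while the other 7 ran from 7.19 to 95.9 CPM.

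The remaining libraries were of earlier phases. Steer 1879 (CH-ZG, H-RFI) had 1307 CPM, and the other 7 of its group had 20.5 to 275 CPM. Steer 1797 (CH-H1, L-RFI) had 550 CPM, and the other 7 had 28.8 to 131 CPM.

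DDIT4 and KLF11, the named genes with the highest r to PDK4, were read in the same libraries, a choice made after their values were seen. These libraries entered that r, so high values in them are no separate evidence of a link. DDIT4 was the highest of its breed and phase in 3 of the 5, at 209 CPM in steer 1316 (median of the 14 CH-H2 libraries 64.4 CPM), 226 CPM in steer 1639 (median of the 16 HF-H2 libraries 50.4 CPM) and 362 CPM in steer 1879 (median of the 17 CH-ZG libraries 208 CPM). Steer 443 had the second highest DDIT4 of the CH-H2 libraries (150 CPM) and the highest KLF11 (33.6 CPM, median 7.81 CPM). Steer 1639 was at place 7 of 16 for KLF11 (15.3 CPM, median 14.0 CPM), and steer 1797 at place 6 of 18 for DDIT4 (164 CPM, median 140 CPM).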

How the results depend on the processing

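PDK4 gave 28 results, each recomputed under its alternatives. HF H2 against ZG and H2 against H1 passed in all of them, and no RFI, breed or interaction result passed in any. The cause of the changes below was not tested. CH H2 against ZG no longer passed with edgeR (-1.67) or DESeq2 (-1.61), both without the replicate block. CH H2 against H1 no longer passed with edgeR (-0.60), DESeq2 (-0.58), no filter (-1.77) or no library left out (-1.57), and passed in the rest. CH ZG against H1 passed with sample quality weights (1.27). Within steers, where an adjusted p under 0.05 was required, H2 against ZG had 0.0625 with TMM-scaled CPM (-2.87). HF against CH in H2 turned with edgeR (-0.51) and DESeq2 (-0.56). L-RFI against H-RFI turned in CH-H2 with DESeq2 (-0.70), quality weights (-0.79) and the model of all libraries with the block (-0.60), in CH-ZG with quality weights (0.66) and that model (0.12), and by permutation in CH-ZG with TMM-scaled CPM (0.16) and no library left out (0.18). Pairing by steer changed no call in limma voom, where values without the block kept the same side of the threshold in all 12 comparisons. The number of genes that passed was also counted at an adjusted p under 0.05 and with no fold limit. Over these and the alternatives other than library totals, it ranged from 846 to 3092 for HF H2 against H1, 227 to 1320 for HF H2 against ZG and 8 to 114 for HF ZG against H1. In CH it ranged from 37 to 464 for H2 against H1, 38 to 177 for H2 against ZG and 40 to 674 for ZG against H1. Between breeds it was 6 to 128 in H1, 4 to 814 in ZG and 1 to 69 in H2. It reached 50 for mean RFI and 887 for the diet by breed interaction with sample quality weights, and was 0 for both in limma voom as reported. With library totals the number was 3959 for HF H2 against H1, 1521 for HF H2 against ZG and 31 for HF ZG against H1. In CH, library totals gave 488 for H2 against H1, 34 for H2 against ZG and 2040 for ZG against H1.

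Leaving out each steer in turn (adjusted p in the models of all libraries computed with the p-values of the other genes held) gave the following ranges. CH H2 against H1 ran from -2.14 to -1.58 and did not pass without steer 1078, 1100, 1320, 1484, 1492, 1797, 1831, 1840, 1846, 307, 310, 322, 364, 449, 555, 581 or 856. Within steers, ZG against H1 ran from 0.99 to 1.40, H2 against ZG from -3.76 to -2.37 and H2 against H1 from -3.29 to -2.30. HF against CH in H2 ran from -0.017 to 0.63, turning without steer 1639. L-RFI against H-RFI ran from -0.36 to 0.68 in CH-H1, from -0.36 to 0.75 in CH-ZG, from -2.64 to 2.09 in CH-H2 and from -0.073 to 0.54 in HF-H1. By permutation it ran from -0.35 to 0.49 in CH-ZG and from -1.28 to 0.22 in CH-H2.

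Gene names were at hand for 118 of the genes tested, so the genes most like PDK4 are known by name only in part. Depth sets how low a level can be read, and 3 reads amounted to 0.0571 to 1.36 CPM. The lowest PDK4 count was above that, at 16 reads.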
